A study of Mus musculus with 6 samples.

Results

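Transcripts of the p53 pathway and of the repair of DNA double-strand breaks were examined in lineage-negative bone marrow of mice, a fraction from which cells with markers of mature blood lineages have been removed. The set was given as 30 genes, and its probe sets were found by gene symbol or current synonym in the platform annotation. Probe sets carrying the single symbol of a member were found for 28 of the 30 genes, 53 probe sets in all out of 45037 on the array without controls. The annotation used here named no probe set for Trp53, the gene of p53 itself, or for Bax, so these 2 genes have no values. The members fell into 14 p53 targets, 5 genes of end joining, 4 of homologous recombination, 6 of break sensing and signalling, and Trp53.

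Each of 6 Affymetrix mouse expression arrays held RNA of 1 sample of lineage-negative marrow, 3 from C57B/L6 mice and 3 from B.D(Chr5) mice. All samples came from adult females of 6 to 16 weeks with no treatment named in the labels, which describe the 3 samples of a strain as biological replicates. The labels give the genetic background of the second strain as B.D and do not describe its chromosome 5 segment, and they leave unsaid if a sample was a single mouse or several pooled. The p-values and intervals therefore measure the spread between these samples. In such bulk RNA, fewer cells of a type and less RNA per cell cannot be told apart.

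p53 is a transcription factor that is held at a low level by the ubiquitin ligase Mdm2 and released when kinases such as Atm report DNA damage. It then raises genes that stop the cell cycle, repair DNA or start cell death, and in blood-forming cells this response removes stem and progenitor cells after irradiation. A break is first bound by the Mre11-Rad50-Nbn complex and marked by phosphorylated histone H2ax. It is then closed either by end joining, which ligates the ends directly and also completes V(D)J recombination in lymphocytes, or by homologous recombination, which copies a sister chromatid and therefore acts in S and G2 phase.

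The closest matches to the p53 response element near the starts of the target genes are shown first, since such elements are how p53 is known to recognise its targets. RefSeq promoter windows of GRCm38.p6, from 250 bases before to 50 after a start, were held for 23 members. They were searched for the p53 response element, 20 bases made of a pair of decamers with no spacer, a motif that reads the same on both strands. With at most 1 mismatch, it was found in 3 of 11 p53 targets, against 0 of the other 12 members with a window and 0.107% of all 27025 genes with a window. These 3 genes are Cdkn1a, Ccng1 and Gtse1. The windows included those of Trp53 and Bax, which had no array values. With at most 3 mismatches it was found in 7 of the 11 targets, in 2 of the other 12 members (Trp53 and Xrcc5) and in 7.20% of all genes. The limits of 1 and 3 mismatches were chosen after the matches were seen, and a match is a description of letters, not of binding. The first pair of lines gives 90 bases around the motif, with the whole motif in capitals, on the strand of the gene. The Cdkn1a motif starts 51 bases before the upstream start of the gene (chr17:29090888-29090977, plus strand), and that of Ccng1 starts 195 bases before its start (chr11:40755432-40755521, minus strand).
Cdkn1a: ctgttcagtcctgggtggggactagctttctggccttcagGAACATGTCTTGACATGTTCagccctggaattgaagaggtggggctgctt
Ccng1: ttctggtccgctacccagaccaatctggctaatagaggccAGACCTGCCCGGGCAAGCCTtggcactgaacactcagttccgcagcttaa
The next lines give the 20 bases alone, with capitals for bases that fit the motif and lower case for those that do not. The Gtse1 site spans a start of the gene (chr15:85859945-85859964, plus strand), and the Aen site lies 121 bases before the downstream of its starts (chr7:78895937-78895956, plus strand).
Cdkn1a site: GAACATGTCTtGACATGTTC
Ccng1 site: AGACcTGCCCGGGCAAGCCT
Gtse1 site: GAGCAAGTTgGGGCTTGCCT
Aen site: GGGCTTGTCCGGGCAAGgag

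E2F factors drive genes of S phase, and their motif was searched as TTTCCCGC, TTTGGCGC, TTTCGCGC and TTTGCCGC on both strands. It was found in 2 of the 23 members with a window, Brca2 and Xrcc6, and in 2.60% of all genes. In both, the word TTTCCCGC lies on the other strand, so the capitals below show its reverse complement. No match says only that these letters were not in the window. Every word searched holds the bases CG, whose median count was 25 in member windows and 7 over all windows. The share of members and that of all genes therefore come from unlike windows. The Brca2 stretch is chr5:150522442-150522471 and that of Xrcc6 is chr15:82016312-82016341, both on the plus strand.
Brca2: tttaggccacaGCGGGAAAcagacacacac
Xrcc6: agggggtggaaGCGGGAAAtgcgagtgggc

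No member differed between the strains past the threshold. Signals were compared as log2(signal + 16) in limma, over the upper 50% of all probe sets by mean level. The differences below are B.D(Chr5) minus C57B/L6 on that scale, and changes of dim probe sets are understated by it. The background level of an array was the 95th percentile of signals from its bacterial controls. Of the 28 measured members, 27 had a tested probe set, and all 27 lay above background on all 6 arrays. The remaining gene, Eda2r, was too dim to be tested. Tested probe sets were chosen by their level, and 63.3% to 71.2% of all probe sets passed the background on each array. Of 5 measured genes of other organs, 0 passed it on all 6 arrays. On their brightest probe sets, Gfap passed on 5, Krt14 on 4, Alb and Ins2 on 2 each and Myh6 on 0. A signal above background therefore does not by itself show expression. Of the 27, 0 were called at an adjusted p of 0.05 in limma, with 2 at an unadjusted p under 0.05 (Bbc3 and Lig4, against 5.2% of all genes tested). Every adjusted p over their 47 tested probe sets was 1.00. Of all 22518 tested probe sets 41 were called (0.182%), 0.0977% higher and 0.0844% lower in B.D(Chr5).

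The data therefore give bounds rather than changes. Each bound is the 95% interval of the log2 difference of the brightest tested probe set of a gene, not adjusted for the number of genes. For 26 of the 27 members the interval lay within a 2-fold change in either direction, and for 20 of the 27 within a 1.5-fold change (74.1%). The same held for 96.1% and 77.5% of all 10739 genes tested, so the bounds of the members were close to those of the array as a whole. The 7 members not bounded within 1.5-fold were the p53 targets Cdkn1a, Mdm2, Bbc3, Sesn2 and Pmaip1 and the end joining genes Lig4 and Xrcc5. The median distance from a difference to the end of its interval was 0.36 for p53 targets, 0.32 for end joining, 0.27 for homologous recombination and 0.23 for break sensing, beside 0.28 over all genes.

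**Figure D1:**
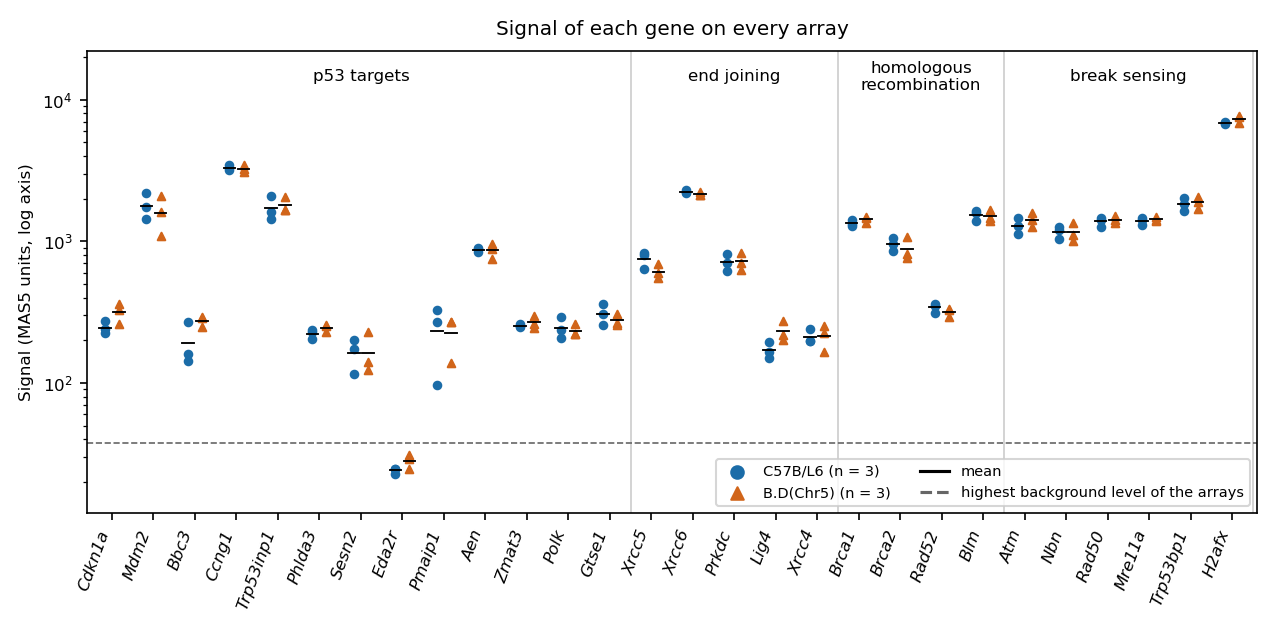
Signal in MAS5 units on a log axis for the brightest probe set of each of the 28 measured genes, with 3 C57B/L6 arrays as circles, 3 B.D(Chr5) arrays as triangles and the mean of each strain as a bar. Eda2r alone lies below the dashed line, the highest background level of the 6 arrays, and Lig4 is the only gene whose 2 groups of points do not overlap; heights of different genes also depend on their probes and give no order of abundance.

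Among the genes through which p53 halts the cell cycle, Cdkn1a encodes the cyclin-dependent kinase inhibitor p21. Its signals were 225, 272 and 241 in C57B/L6 and 328, 261 and 361 in B.D(Chr5). The B.D(Chr5) arrays were higher on average, with replicate 2 inside the C57B/L6 range. The log2 difference was 0.34 with an SE of 0.16 and an interval from -0.029 to 0.70 (limma adjusted p = 1.00), so that the level in B.D(Chr5) lay between 0.980 and 1.62 times that in C57B/L6. Its other probe set, which was too dim to be tested, lay above background on 2 of 6 arrays. Ccng1, the cyclin G1 gene, a long-known p53 target with the motif shown above, gave the tightest bound of the targets. Its signals were 3189, 3463 and 3279 in C57B/L6 and 3436, 3265 and 3075 in B.D(Chr5), overlapping almost entirely. The difference was -0.023 with an SE of 0.078 and an interval from -0.20 to 0.15 (limma adjusted p = 1.00), and its other 2 tested probe sets had differences of 0.13 and 0.032. Gtse1, which is made in G2 and S phase and restrains p53, had signals of 305, 257 and 362 against 308, 257 and 266, with an interval from -0.50 to 0.23.

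Mdm2 closes the feedback loop on p53, and its probe sets disagreed. The brighter one read 2178, 1447 and 1742 in C57B/L6 and 1084, 2089 and 1612 in B.D(Chr5), a range of 2.01-fold over the 6 arrays, most of it within the strains. Its log2 difference was -0.19 with an SE of 0.22 and an interval from -0.69 to 0.30. The second tested probe set read 654, 710 and 598 against 739, 818 and 696, a difference of 0.19 in the other direction with an interval from -0.062 to 0.45. B.D(Chr5) replicate 1 was the lowest array of the brighter probe set and the middle of its strain on the second. The third Mdm2 probe set lay above background on 0 of 6 arrays. Trp53inp1, a stress protein gene that strengthens p53 activity, read 1428.5, 1613 and 2102 in C57B/L6 and 1663, 1656 and 2067 in B.D(Chr5) on its brightest probe set. It likewise had differences of 0.077 and -0.17 on its 2 tested probe sets, with intervals from -0.25 to 0.41 and from -0.65 to 0.32.

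Of the targets that promote cell death, Bbc3 encodes the BH3-only protein Puma. It had the largest difference among the brightest tested probe sets of the 27 members. Its signals were 160.0, 142 and 270.2 in C57B/L6 and 286, 248 and 293 in B.D(Chr5). C57B/L6 replicate 3 fell within the B.D(Chr5) range and the other C57B/L6 arrays lay below it. The log2 difference was 0.54 with an SE of 0.23 and an interval from 0.038 to 1.05 (limma adjusted p = 1.00). Among the brightest tested probe sets, this was the 1 interval that reached past 2-fold. Without C57B/L6 replicate 3 the difference was 0.80 (limma adjusted p = 0.633), and without C57B/L6 replicate 2 it was 0.37 with an interval from -0.16 to 0.90. Pmaip1, which encodes Noxa, another BH3-only protein, had the widest interval of the members, from -0.84 to 0.97. It read 96.0, 329.9 and 269 in C57B/L6 and 267, 139 and 270.0 in B.D(Chr5), a range of 3.44-fold over the arrays with a low array in each strain. Its difference of 0.062 had an SE of 0.40 and an adjusted p of 1.00 in limma, and became -0.43 without C57B/L6 replicate 1 and 0.38 without C57B/L6 replicate 2. Aen, a nuclease gene of apoptosis, was steady by comparison, at 889.9, 883 and 845 against 955, 889 and 749, with an interval from -0.27 to 0.23. Its 4 tested probe sets had differences between -0.094 and 0.14.

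Phlda3 encodes an inhibitor of Akt signalling. It read 237, 229 and 204 in C57B/L6 and 256, 252 and 230.3 in B.D(Chr5), and the strains overlapped only between the highest C57B/L6 and the lowest B.D(Chr5) array. The difference was 0.13 with an SE of 0.15 and an interval from -0.19 to 0.46 (limma adjusted p = 1.00). Sesn2, for the metabolic stress protein sestrin 2, had a pair of tested probe sets that behaved differently. The brighter read 202, 115 and 172 against 141, 227 and 123, a difference of -0.0082 with an interval from -0.60 to 0.59. The dimmer read 103, 98.1 and 89.4 in C57B/L6 and 85.9, 53.9 and 17.4 in B.D(Chr5). All 3 B.D(Chr5) arrays of the dimmer probe set were lower, the last of them below the background of its array. Its difference was -0.86 with an SE of 0.37 and an interval from -1.71 to -0.023 (limma adjusted p = 1.00). Zmat3, an RNA-binding zinc finger gene, read 254, 246 and 259.7 against 246, 299 and 259, with an interval from -0.25 to 0.39. Polk, a translesion DNA polymerase gene, read 236, 208 and 293 against 259, 220.2 and 219.9, with an interval from -0.44 to 0.32. Eda2r, a receptor of the TNF receptor family, read 24.7, 22.7 and 24.8 in C57B/L6 and 31.1, 24.5 and 29.1 in B.D(Chr5). These values lay at the background level, with 4 of 6 arrays just above that of their own array, and they give no usable difference. Over the 12 tested p53 targets, 6 differences were positive and 6 negative, with a median of 0.027 beside -0.0084 over all genes tested. Of all genes tested, 46.7% had a positive difference.

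**Figure D2:**
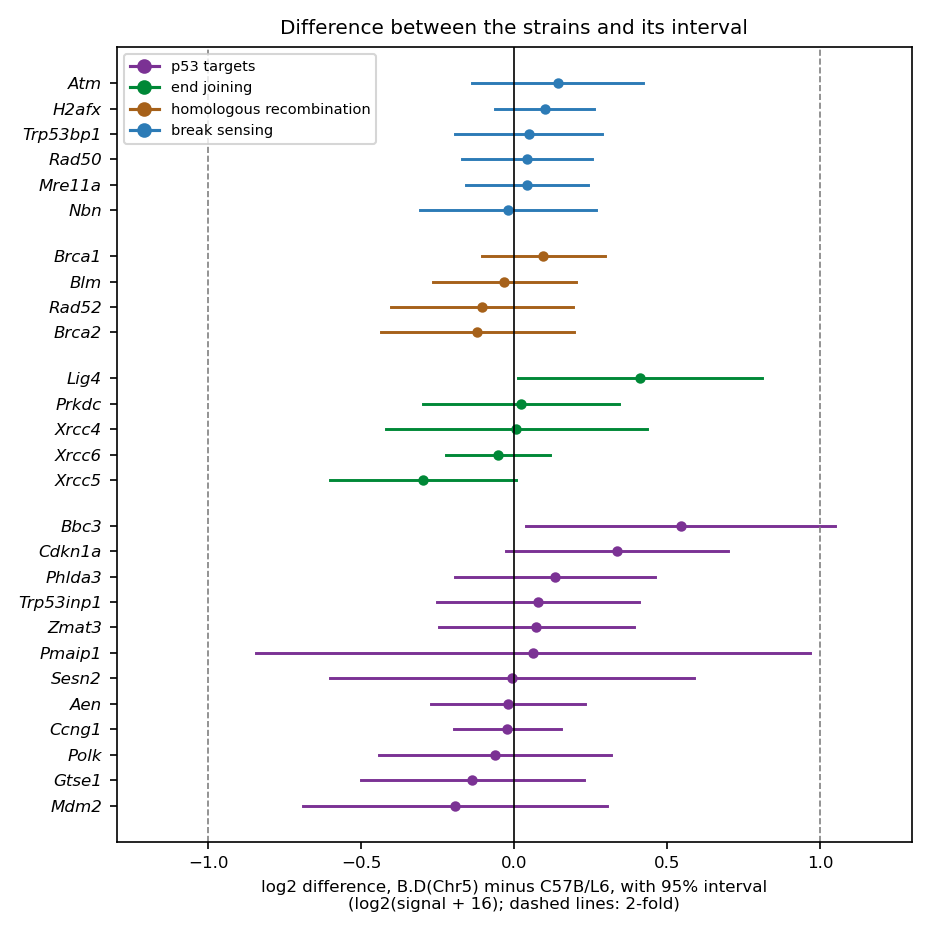
Log2 difference B.D(Chr5) minus C57B/L6 with its 95% interval from limma for the brightest tested probe set of each of 27 genes, coloured by role, with 2-fold changes as dashed lines. The intervals of Bbc3 and Lig4 exclude 0 before adjustment over all probe sets, that of Pmaip1 is the widest and that of H2afx is the narrowest.

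In end joining, the Ku heterodimer of Xrcc5 (Ku80) and Xrcc6 (Ku70) binds the broken end. Xrcc5 read 822, 639.9 and 805 in C57B/L6 and 548, 686 and 598 in B.D(Chr5). It was lower on average in B.D(Chr5), with C57B/L6 replicate 2 inside the range of the other strain. The difference was -0.30 with an SE of 0.14 and an interval from -0.60 to 0.0062 (limma adjusted p = 1.00), a level between 0.659 and 1.00 times that in C57B/L6. Its partner Xrcc6 read 2231, 2292 and 2208 against 2111, 2135 and 2243 and had the smallest within-strain SD of the 27 members, 0.038 on the log2 scale. The difference was -0.053 with an SE of 0.076 and an interval from -0.22 to 0.12 (limma adjusted p = 1.00). Prkdc, the DNA-dependent protein kinase that the Ku dimer recruits, read 702, 614 and 819 against 630.0, 706 and 831, with an interval from -0.30 to 0.34.

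The ligation step is carried out by Lig4 with its partner Xrcc4. Lig4 read 194, 151 and 166 in C57B/L6 and 219.5, 202 and 276 in B.D(Chr5), and all 3 B.D(Chr5) arrays lay above all 3 of C57B/L6. It was the 1 of 27 members whose brightest probe set separated the strains in this way, 3.70% against 9.93% of all genes tested. The difference was 0.41 with an SE of 0.18 and an interval from 0.011 to 0.81 (limma adjusted p = 1.00). B.D(Chr5) replicate 3, the highest array for Lig4, was also the highest for Ms4a1 and Cd79a, listed as mature B cell markers. Their summed signal was 2201 there and between 529 and 959 on the other 5 arrays. Without that array the Lig4 difference was 0.29 with an interval from -0.12 to 0.70, and without C57B/L6 replicate 2 it was 0.34 with an interval from -0.13 to 0.80. The part of B cells in the Lig4 values was not tested. Xrcc4 read 242, 196 and 196 against 254, 166 and 225, overlapping widely. Its difference was 0.0071 with an SE of 0.19 and an interval from -0.42 to 0.43 (limma adjusted p = 1.00), and its other tested probe set had a difference of -0.18. Over the 5 genes of end joining, 3 differences were positive and 2 negative, with a median of 0.0071.

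Homologous recombination was represented by Brca1, Brca2, Rad52 and Blm. Brca1, which promotes resection of the broken end and brings in Brca2, had 3 tested probe sets, all of them higher in B.D(Chr5) on average. The brightest read 1415, 1292 and 1321 in C57B/L6 and 1344, 1494 and 1470.3 in B.D(Chr5), with a difference of 0.095, an SE of 0.0895 and an interval from -0.11 to 0.30 (limma adjusted p = 1.00). The second read 352, 389 and 360 against 433, 465 and 453, without overlap. Its difference was 0.28 with an SE of 0.12 and an interval from 0.019 to 0.55 (limma adjusted p = 1.00). The third had a difference of 0.16. Another, too dim to be tested but above background on all 6 arrays, averaged 75.1 for C57B/L6 and 63.2 for B.D(Chr5), with overlap and a difference of -0.18 when no filter was used (interval from -0.94 to 0.59). Brca2, which loads the recombinase onto single-stranded DNA, is the 1 measured member on chromosome 5, the chromosome in the name of the second strain. It read 1052, 859 and 949 in C57B/L6 and 762, 815 and 1069.6 in B.D(Chr5). The strains overlapped, since B.D(Chr5) replicate 3 was the highest array of all. The difference was -0.12 with an SE of 0.14 and an interval from -0.44 to 0.20 (limma adjusted p = 1.00), a level between 0.739 and 1.15 times that in C57B/L6.

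Rad52, which anneals complementary strands, read 361, 314 and 350.1 against 332, 326 and 291. The difference was -0.11 with an SE of 0.13 and an interval from -0.40 to 0.19 (limma adjusted p = 1.00), and its 2 tested probe sets had differences of -0.11 and -0.22. Blm, the helicase that dissolves recombination intermediates, read 1629, 1399 and 1579 against 1454, 1671 and 1383, with an interval from -0.27 to 0.20. All 4 genes were bounded within 1.5-fold. Their median difference was -0.069, with 1 positive and 3 negative values.

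Because recombination genes are made mainly in cycling cells, markers of S to M phase are given beside them. All 9 measured markers, among them Mki67, Top2a and Pcna, lay above background on all 6 arrays, and 0 were called in limma. Their summed signal was between 61115 and 66390.1 in C57B/L6 and between 65174 and 67766 in B.D(Chr5). The median difference of these markers was 0.037, with 8 of 9 positive, beside 46.7% positive over all genes tested.

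All 6 break sensing genes were bounded within 1.5-fold. Atm, the kinase that signals the break to p53, read 1286, 1117 and 1466 in C57B/L6 and 1263, 1586 and 1417 in B.D(Chr5). Its difference was 0.14 with an SE of 0.12 and an interval from -0.14 to 0.42 (limma adjusted p = 1.00), and its other tested probe set had a difference of 0.033. In the complex that binds broken ends, Mre11a (now Mre11) read 1413, 1465 and 1295 against 1411, 1486 and 1391, Rad50 read 1455, 1269 and 1421 against 1346, 1514 and 1409, and Nbn read 1203, 1266 and 1036 against 1113, 1349.6 and 1007. The strains overlapped in all 3 subunits, with intervals from -0.16 to 0.24 for Mre11a, from -0.17 to 0.26 for Rad50 and from -0.31 to 0.27 for Nbn. The differences were 0.040, 0.043 and -0.020 in that order, with SEs of 0.089, 0.095 and 0.13, and every adjusted p in limma was 1.00. A second, dimmer Mre11a probe set had a difference of -0.29 with an interval from -0.73 to 0.15.

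Trp53bp1 encodes 53BP1, which shields broken ends from resection and so favours end joining. Its brightest probe set read 1821, 1635 and 2019 against 1898, 2056 and 1703, with an interval from -0.19 to 0.29. It had 6 tested probe sets, whose differences lay between -0.088 and 0.30, with the widest intervals on the dimmest ones. H2ax, listed as H2afx, the histone variant phosphorylated around breaks, read 6847, 7005 and 6700 in C57B/L6 and 7719, 6807 and 7516 in B.D(Chr5). B.D(Chr5) replicate 2 lay within the C57B/L6 range and the other B.D(Chr5) arrays above it. The difference was 0.099 with an SE of 0.072 and an interval from -0.063 to 0.26 (limma adjusted p = 1.00), the narrowest of the 27. The median difference of break sensing was 0.045, with 5 positive and 1 negative, beside 46.7% positive over all genes tested.

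**Figure D3:**
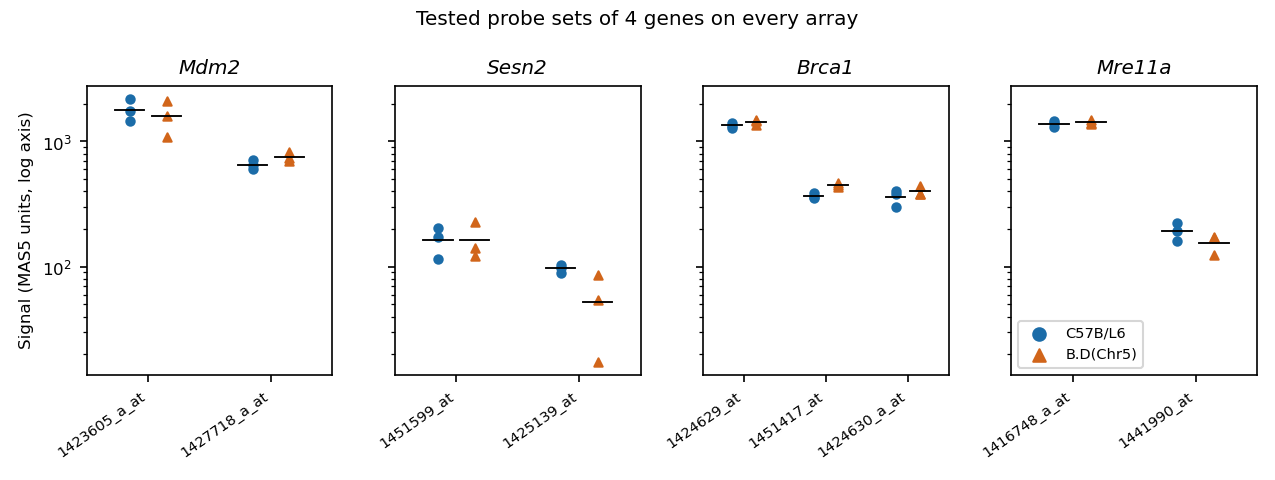
Signal in MAS5 units on a log axis for each tested probe set of Mdm2, Sesn2, Brca1 and Mre11a, with 3 arrays per strain as points and the mean of each strain as a bar. The 2 probe sets of Mdm2 and of Mre11a differ in the sign of the difference, those of Sesn2 share a negative sign with -0.86 on the dimmer one, and all 3 of Brca1 are positive.

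For 15 of the 27 tested members, Bbc3 and Lig4 among them, a single probe set was tested. Of the 12 members with over 1 tested probe set, 4 had differences of one sign on all of them, Atm, Brca1, Rad52 and Sesn2, and 8 had both signs. Over all 47 tested probe sets, 26 differences were positive and 21 negative. The strains did not overlap on 3 of them (6.38%), those of Lig4, Brca1 and Sesn2 described above, against 9.4% of all tested probe sets. Those of Lig4 and Brca1 were higher in B.D(Chr5), and that of Sesn2 was lower. Over all tested probe sets, 4.16% were higher and 5.24% were lower without overlap. An unadjusted p under 0.05 was found for 4 (8.51%), the same 3 and Bbc3, against 4.75% of all tested probe sets. The median within-strain SD of the members was 0.18 on the log2 scale, beside 0.17 over all tested probe sets, and ran from 0.038 for Xrcc6 to 0.71 for Pmaip1.

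The other genes of these pathways were taken from 4 further lists. Of 79 listed genes 73 had a probe set and 69 had a tested one. In limma 0 of the 69 were called, and the interval of the brightest tested probe set lay within 2-fold for all 69. Among 19 tested p53 targets and regulators, 11 differences were positive and 8 negative, with a median of 0.0038. The 2 of smallest p were Apaf1, whose product builds the apoptosome, and Sesn1. Apaf1 had differences of 0.31 and 0.18 on its 2 tested probe sets, and Sesn1, a sestrin gene, had negative differences on all 4, between -0.21 and -0.074.

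Among 9 tested genes of end joining, 3 were positive and 6 negative, with a median of -0.013. The 2 of smallest p were Dntt, the terminal transferase that adds bases at V(D)J junctions, and Polm, a related polymerase gene. Dntt had a difference of -0.21 with an interval from -0.43 to 0.020 on its brightest probe set, and 0.036 and -0.25 on its other 2. Polm had a difference of 0.31 with an interval from -0.13 to 0.75. Of 22 genes of homologous recombination, 11 were positive and 11 negative, with a median of 0.0011. The 2 of smallest p were Rad51c, a recombinase paralog, with differences of 0.70 (limma adjusted p = 0.987) and 0.23 on its tested probe sets, the larger on the dimmer one, and Exo1, a resection nuclease gene, with 0.29, 0.0895 and 0.012 on its 3.

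Among 19 tested genes of break sensing, 11 were positive and 8 negative, with a median of 0.0052. The 2 of smallest p were Brcc3, a deubiquitinase of the Brca1-A complex, and Clspn, an adaptor of the checkpoint kinase Chek1. Brcc3 had differences of both signs on its 5 tested probe sets, from -0.29 to 0.14, with 0.14 on the brightest. Clspn had 0.44 and 0.0052, the larger on the dimmer probe set. Chek2, a checkpoint kinase gene on chromosome 5, had a difference of 0.063 with an interval from -0.19 to 0.31.

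**Figure D4:**
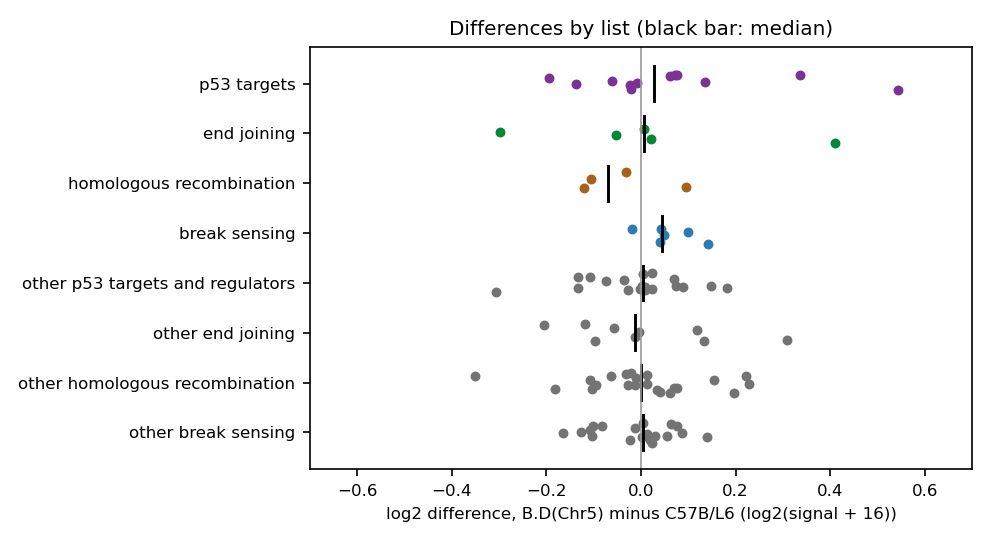
Log2 difference B.D(Chr5) minus C57B/L6 of the brightest tested probe set of each gene, by role for the 27 members and for 69 further genes of the same pathways, with the median of each list as a black bar. Medians lie between -0.069 and 0.045, and the outermost points are Bbc3 at 0.54, Lig4 at 0.41 and Bard1 at -0.35.

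The preparation was checked against markers. All 5 measured stem and progenitor markers (Kit, Cd34, Flt3, Gata2 and Cd48) lay above background on all 6 arrays. Their summed signal ranged from 17023 to 20620.1 in C57B/L6 and from 18319 to 18530.4 in B.D(Chr5). This sum joins differences of opposite sign. Cd48, the brightest of the 5 on average, had a difference of 0.29. The other 4 were negative, the lowest at -0.29 for Flt3, and the median of the 5 was -0.12. The strains overlapped on each of them, and 0 were called in limma. Of the 4 genes of mature T cells, Cd4 was above background on 0 of 6 arrays. The summed signal of the 4 was 619 to 933 in C57B/L6 and 432 to 666 in B.D(Chr5). Cd3d read 418, 664 and 512 in C57B/L6 and 349, 277 and 258 in B.D(Chr5), without overlap. Its log2 difference was -0.80 with an interval from -1.22 to -0.39, and it was not called (limma adjusted p = 0.349). Cd3e and Cd8a overlapped, with differences of -0.24 and 0.24 on their brightest probe sets. For 2 genes listed as mature B cell markers the sums were 529 to 699 and 678 to 2201. The strains overlapped on both genes. The difference was 0.99 (interval from -0.084 to 2.06) for Ms4a1 and 0.68 (0.086 to 1.27) for Cd79a, and neither was called. For 3 genes listed as mature myeloid markers the sums were 6398 to 8357 and 6520 to 9651. Most of this was Csf1r, at 6141 to 9071 over the arrays, beside 171 to 449 for Itgam and 41.1 to 159 for Cd14. Whether Csf1r and Cd79a mark mature cells alone in this fraction was not tested. For 2 red cell genes the sums were 834 to 1557 and 665 to 1496, nearly all of it Slc4a1, since Hba-a1 was above background on 2 of 6 arrays. Array medians ran from 65.0 to 79.5 and background levels from 21.8 to 38.0, highest on B.D(Chr5) replicates 2 and 3. The signal of 18S ribosomal RNA ranged from 1726 to 20010.3, with the highest on B.D(Chr5) replicate 2 and the lowest on B.D(Chr5) replicate 1. The part of these differences in the members' values was not tested.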

How the data were processed

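The deposited table gives one intensity per probe set and array on a linear scale, made by the authors with MAS5, per the submitters' processing notes (version: not given in the sources used here). Every array has a mean signal of 500 once the extreme values at both ends are trimmed. The 64 control probe sets were left out of the tests. Symbols come from the platform annotation, updated through Entrez identifiers to RefSeq (GRCm38.p6); 34945 probe sets had 1 symbol, 932 had several and 9160 had none.

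Intensities were turned into log2(signal + 16), and the upper 50% of probe sets by mean log2 value were fitted for strain alone with limma (version 3.58.1, under R 4.3.3), using its lmFit function and a trended eBayes. Tests were two-sided, with Benjamini-Hochberg adjustment over all tested probe sets and a threshold of 0.05; intervals are 95%. The fit was tested on simulated data with known changes. Background on an array was set at the 95th percentile of its 27 bacterial controls. No pair of arrays held identical values. With 3 arrays per strain, their number limits the precision.

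Genes were named by rule: every member, with full statistics for those of smallest p and of widest and narrowest interval in each role, and of each further list the 2 genes of smallest p over any tested probe set. Bard1 and Chek2 were named after their values were seen, as were the Fas and Parp1 probe sets of the closing section. Members and lists were chosen with earlier results of these data known. Alternatives covered the pseudocount, the filter on dim probe sets, normalization, the trend, the replicate number as a block, probe sets ending in _x_at or _s_at, gene means, and leaving out each array.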

Additional observations from a re-analysis of the deposited data

How the results depend on the processing

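Under 15 alternatives, 9 with all 6 arrays and 6 with an array left out, 0 members were called in limma wherever calls were counted, and 0 of 405 single member values passed the threshold. The count bounded within 2-fold stayed between 25 and 27. The sign of the difference held under all of these for 12 of the 27 tested members (Atm, Bbc3, Brca1, Brca2, Cdkn1a, Gtse1, H2afx, Lig4, Phlda3, Rad52, Xrcc5 and Xrcc6) and changed under at least 1 for the other 15. Over the whole table, the 41 calls became 25 without the trend and 23 without probe sets ending in _x_at or _s_at, where fewer were tested. They ranged from 21 to 73 when 1 array was left out, lowest without B.D(Chr5) replicate 1 and highest without B.D(Chr5) replicate 2. With the replicate number as a block, 27 were called. Deviations of same-numbered arrays correlated at -0.11, -0.20 and 0.20. Arrays of unlike number were not compared in this way, so these values cannot decide if the numbers pair the samples. Calls among pathway genes became 1, that of Parp1, with no filter on dim probe sets and with a filter on the mean intensity, an alternative added after the data were seen. The median difference of end joining ranged from -0.079 to 0.033 when 1 array was left out, and was lowest without B.D(Chr5) replicate 3. Other causes of these shifts were not tested. Signal close to background limits Eda2r and the dim probe sets.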

Other observations

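Probe sets of 2 pathway genes, Parp1 and Fas, were too dim to be tested and were named after their values were seen. They lay above background on all 3 C57B/L6 arrays and on 0 of 3 B.D(Chr5) arrays. How many other untested probe sets have this pattern was not counted. The background was 22.8, 21.8 and 24.4 on the C57B/L6 arrays. On the B.D(Chr5) arrays it was 23.4, 31.8 and 38.0, so the limit was higher on replicates 2 and 3 of that strain. Parp1 encodes poly(ADP-ribose) polymerase 1, which binds DNA breaks early, and lies on chromosome 1. Its dimmest probe set read 166, 134 and 135 in C57B/L6, above background on 3 of 3 arrays. In B.D(Chr5) it read 1.56, 3.64 and 19.7, above background on 0 of 3 arrays. On the log2 scale, the C57B/L6 mean lay 4.74-fold above the mean background of the B.D(Chr5) arrays, a ratio that carries no sampling error. With no filter on dim probe sets, the log2 difference of this Parp1 probe set was -2.80 with an interval from -3.57 to -2.02. It was then called (limma adjusted p = 0.0301), among 31 calls over all 45037 probe sets. The other 3 Parp1 probe sets, all far brighter, had log2 differences of -0.16, -0.051 and 0.050 and were not called. The reason for this disagreement within the gene was not tested. Fas, a death receptor gene and p53 target, had 1 probe set. It read 54.1, 76.2 and 81.5 in C57B/L6 and 6.59, 24.2 and 36.7 in B.D(Chr5), without overlap. The 36.7 on B.D(Chr5) replicate 3 was above the background of every C57B/L6 array. On the log2 scale, the C57B/L6 mean lay 2.28-fold above the mean background of the B.D(Chr5) arrays, again without sampling error. With no filter the log2 difference of Fas was -1.24 with an interval from -2.07 to -0.41, and Fas was not called (limma adjusted p = 0.794).

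The members were extreme on different arrays. Of the 27 tested members, 9 had their highest signal on B.D(Chr5) replicate 2 and 9 had their lowest on C57B/L6 replicate 2, while each of the other arrays was the highest for 3 to 5 members and, with B.D(Chr5) replicate 2, the lowest for 2 to 5. These counts were not made over all genes tested, so it is not known if they are particular to the members.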
